A study of Mus musculus with 9 samples.

Results

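The 9 genes described here encode the machinery that releases paused RNA polymerase II: the 7SK small nuclear RNA, its partners Hexim1, Larp7 and Mepce, the P-TEFb subunits Cdk9, Ccnt1 and Ccnt2, and the super elongation complex genes Aff4 and Ell2. They were taken by their listed symbols from 34590 genes in the count files, and all 9 were in the files and passed the filter on low counts, which left 17182 genes. Total RNA came from telencephalons, the embryonic forebrain region that forms cortex and basal ganglia, of mouse embryos at E12.5 on a mixed strain background. There were 4 libraries from Lats1/2 double knockout embryos (dKO), labelled as deleted for both Hippo pathway kinase genes by Nestin-Cre, active in neural progenitors and their progeny, and 5 wild-type (WT) libraries. The dissected tissue also holds blood vessels, blood cells and meninges. Cells were counted and a synthetic RNA mix (ERCC spike-ins) was added per cell number before extraction, so counts divided by spike-in counts stand for RNA per cell as far as counting and spiking were even across pellets.

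P-TEFb is the kinase Cdk9 bound to cyclin T1 or T2. It phosphorylates the tail of RNA polymerase II and the factors that hold the polymerase just after the start of a gene, and the polymerase then moves into productive elongation. Much of the cell's P-TEFb is kept inactive in a particle built on 7SK RNA: MePCE (Mepce) caps the 5′ end of the RNA, LARP7 holds its 3′ end, and HEXIM1 binds the RNA and blocks the kinase. Free P-TEFb joins the super elongation complex, in which AFF4 is the scaffold and ELL2 an elongation factor. These genes bear on the study's title, which concerns the Hippo pathway and transcription across the genome.

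The 7SK RNA is shown because it is the platform on which the other particle members bind and the most abundant RNA described here. In the GRCm38 annotation (GENCODE M21) the gene is Rn7sk, at chr9:78175303-78175633 on the minus strand, a single exon of 331 bases outside any other gene. The sequences below come from that annotation's transcript file. HEXIM1 is known to contact a repeat of the motif GAUC in the 5′ hairpin of human 7SK. Capitals in the 5′ stretch, the first bases at chr9:78175526-78175633, mark every match to these letters (GATC in DNA). Not every marked match need belong to the contacted repeat. All 3 matches in the transcript lie in this stretch, starting at bases 13, 42 and 64. Capitals in the 3′ stretch (bases 272 to 331, chr9:78175303-78175362) mark the terminal run of 3 T, written U in the RNA, the kind of end that La-related proteins such as LARP7 hold.
7SK 5′ stretch: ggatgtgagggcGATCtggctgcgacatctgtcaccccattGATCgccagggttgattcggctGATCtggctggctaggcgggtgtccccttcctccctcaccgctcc
7SK 3′ stretch: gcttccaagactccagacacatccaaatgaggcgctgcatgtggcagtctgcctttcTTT
The files name this row 7SK, a family name in the style of their rows U1, U6 and Y_RNA, and do not say whether it sums several genomic copies. Reads aligned to several places stood outside the gene counts.

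Depth ranged from 16566763 to 45803152 gene counts in dKO libraries and from 12906561 to 39263370 in WT libraries. Gene counts per spike-in count averaged 79.1 ± 5.90 in dKO (SD, n = 4) and 58.1 ± 6.10 in WT (n = 5), a 1.36-fold difference without overlap (two-sided exact permutation p = 0.00794, the smallest that 126 assignments can give). Lats1 was at 58.8 to 61.3 CPM (read counts scaled to library size with the TMM method) in dKO libraries and at 124.7 to 136.4 CPM in WT libraries. Lats2 was at 36.3 to 56.4 CPM in dKO and 20.2 to 32.4 CPM in WT, higher in dKO (relative log2 0.69, adjusted p = 0.0144, edgeR). Since the extent of the deletions is unknown here, the Lats2 count does not check the labels. All 6 listed targets of YAP and TAZ, the coactivators that the Lats kinases restrain, rose relative to all genes in dKO, by a log2 of 2.19 to 3.74 (edgeR). WT 2, 3 and 4 stood apart by reads in no gene, 39.3% to 41.3% of all read pairs tallied by the counter against 32.0% to 35.6% in dKO 1 to 4, WT 1 and WT 5, so results are also given without them. Among markers of cell types, those of radial glia had summed levels of 3327 to 3766 CPM in dKO and 2008 to 2393 CPM in WT, those of neurons 3315 to 3716 CPM in dKO and 3871 to 4485 CPM in WT. Markers of intermediate progenitors summed to 436 to 517 CPM in dKO and 531 to 639 CPM in WT, those of the ventral lineage to 225 to 353 CPM in dKO and 497 to 574 CPM in WT, and those of erythroid cells to 1937 to 3498 CPM in dKO and 2434 to 6524 CPM in WT. Relative to all genes, 13.7% of all genes tested rose and 12.0% fell (edgeR, adjusted p under 0.05). Of the fixed markers, 3 of 8 radial glia genes rose and 2 fell in that test. Falls in that test were found for 7 of 8 neuronal, 4 of 6 intermediate progenitor, 7 of 7 ventral and 1 of 8 erythroid genes. Per spike-in count, 6 of 8 radial glia, 1 of 8 neuronal and 1 of 6 intermediate progenitor genes rose, and 0 of these fell. On that scale 4 of 7 ventral genes fell and 0 rose, and 0 of 8 erythroid genes rose or fell (edgeR). Over all genes tested, 61.1% rose and 0.698% fell per spike-in count. The part of these shifts in cell make-up in the values below was not tested, and in bulk tissue fewer cells of a type and less RNA per cell cannot be told apart.

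All 9 genes rose per spike-in count in dKO telencephalons and none fell (edgeR quasi-likelihood test, adjusted p under 0.05; 0 fell at an unadjusted p under 0.05 and with DESeq2 or limma-voom). Over all genes tested, 61.1% rose and 0.698% fell per spike-in count (61.8% in either direction), so a rise is the common outcome on this scale. The median log2 fold change of the 9 genes was 0.37, against 0.43 over all genes tested. The libraries of the groups did not overlap for 7 of the 9 genes, where 48.6% of all genes tested showed no overlap. Relative to all genes, the scale that compares a gene with the typical gene of its library, only Larp7 rose and only Ccnt2 fell among the 9 (edgeR), where 13.7% of all genes tested rose and 12.0% fell (25.7% in either direction). The median of the 9 was -0.07 on this scale, against -0.01 over all genes tested, and for 3 of the 9 (Hexim1, Larp7 and Ccnt2) the groups did not overlap, where 22.3% of all genes did so. Without WT 2, 3 and 4, 3 of the 9 (Larp7, Ccnt1 and Aff4) rose per spike-in count, where 48.2% of the 17490 genes tested in that fit rose. In that fit 0 of the 9 rose or fell relative to all genes (edgeR; Larp7 and Ccnt2 had an unadjusted p under 0.05), where 2.33% of genes rose and 0.972% fell.

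**Figure D1:**
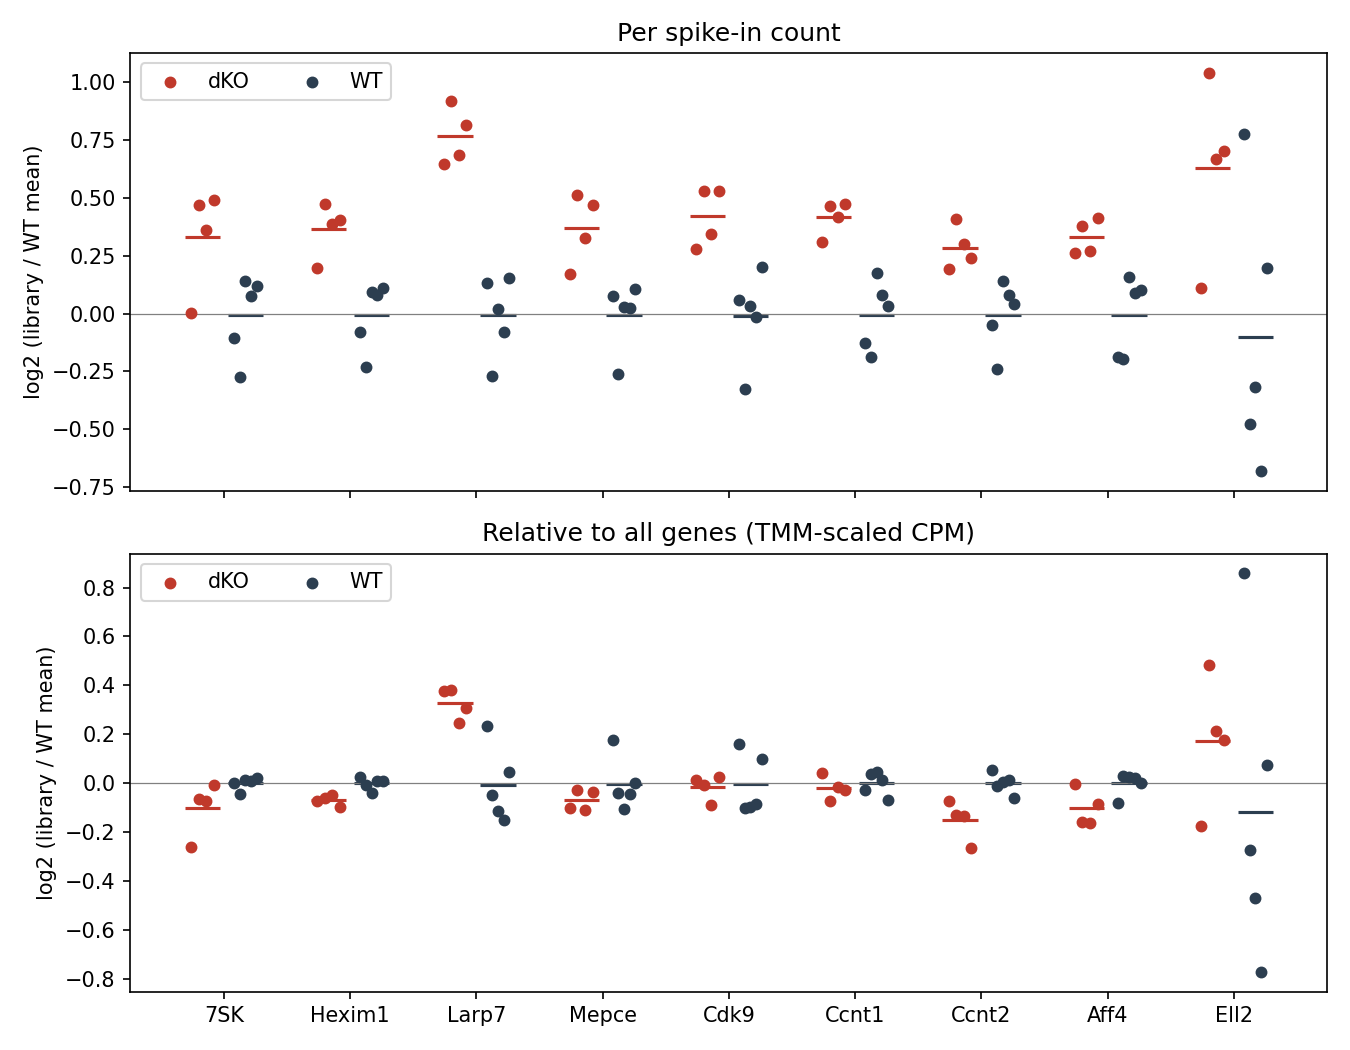
Each point is 1 library, as the log2 ratio to the WT mean of that gene, per spike-in count (top) and as TMM-scaled CPM (bottom); bars are group means of the log2 ratios, dKO (n = 4) left of WT (n = 5). Per spike-in count, the dKO libraries lie above the WT libraries without overlap for all genes but 7SK and Ell2; relative to all genes, Larp7 is the gene whose dKO libraries all lie above WT.

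The RNA that anchors the particle made up 1.63% to 1.95% of gene counts in dKO libraries and 1.92% to 2.01% in WT libraries. 7SK had 1158, 1599, 1483 and 1625 counts per 1000 spike-in counts in dKO libraries 1 to 4, against 1074, 957, 1275, 1217 and 1257 in WT libraries 1 to 5. The groups overlapped: dKO 1 lay below WT 3, WT 4 and WT 5, and the other 3 dKO libraries lay above every WT library. The log2 fold change per spike-in count was 0.34 (SE 0.14, adjusted p = 0.0372, edgeR), or 1.27-fold. Relative to all genes, 7SK was at 16552 CPM in dKO 1 and 18859 to 19718 CPM in dKO 2, 3 and 4, against 19248 to 20133 CPM in WT, a log2 fold change of -0.10 (95% interval -0.27 to 0.07, adjusted p = 0.374, edgeR). The rise per spike-in count did not pass when WT 1, WT 2, WT 4, dKO 2 or dKO 4 was left out (log2 0.28 to 0.36), nor with WT 2, 3 and 4 left out (0.33, adjusted p = 0.138, edgeR), and was 0.44 without dKO 1. It also did not pass with no filter on low counts (0.34, adjusted p = 0.0678, edgeR).

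Other structural and nuclear noncoding RNAs were read beside 7SK. Of 10 tested, 3 rose and 0 fell per spike-in count (edgeR), where 61.1% of all genes tested rose and 0.698% fell. Their medians were 0.25 per spike-in count and -0.20 relative to all genes. On the relative scale 5 of the 10 fell and 0 rose at an unadjusted p under 0.05. After adjustment 0 of the 10 rose and 2 fell (edgeR), where 13.7% of all genes tested rose and 12.0% fell. The falls were those of U1, the small nuclear RNA that recognises 5′ splice sites (454 ± 67.96 CPM in dKO, 689 ± 151 CPM in WT; -0.60, adjusted p = 0.0157), and of Malat1, a long noncoding RNA of nuclear speckles (9246 ± 505 CPM in dKO, 10828 ± 593 CPM in WT; -0.23, adjusted p = 0.0368, edgeR). Neither passed without WT 2, 3 and 4 (-0.25 with adjusted p = 0.344 for U1, -0.16 with adjusted p = 0.428 for Malat1). The call of U1 was also lost without dKO 1, and that of Malat1 without WT 1, WT 2, WT 3, WT 4 or dKO 2 (adjusted p up to 0.0529 and 0.118, edgeR). The family rows made, like 7SK, by RNA polymerase III were picked out after their values were seen. U6, the small nuclear RNA of the spliceosome core, averaged 45.5 CPM in dKO and 54.0 CPM in WT, Y_RNA averaged 27.6 CPM in dKO and 32.1 CPM in WT, and 5S_rRNA averaged 8.68 CPM in dKO and 9.67 CPM in WT. Their relative log2 fold changes of -0.25, -0.22 and -0.18 did not pass the test (adjusted p = 0.0812, 0.0868 and 0.444, edgeR). Without WT 2, 3 and 4 these values were -0.07 for U6, -0.19 for Y_RNA and 0.13 for 5S_rRNA, so the 3 rows did not share a direction in that fit.

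Larp7, whose protein stabilises 7SK by holding its 3′ end, had the lowest adjusted p of the 9 genes on both scales. It was at 75.9, 76.2, 69.4 and 72.3 CPM in dKO libraries 1 to 4, against 68.7, 56.6, 54.1, 52.7 and 60.4 CPM in WT libraries 1 to 5. Every dKO library lay above every WT library, with dKO 3 and WT 1 close together. The relative log2 fold change was 0.33 (SE 0.07, adjusted p = 0.00612, edgeR), or 1.26-fold. Per spike-in count it was 0.77 (SE 0.11, adjusted p = 1.36e-06, edgeR), or 1.71-fold. Leaving out any 1 library gave relative values of 0.30 to 0.40, each past the test; without WT 2, 3 and 4 the value was 0.18 (adjusted p = 0.217, edgeR), and 0.63 per spike-in count (adjusted p = 0.0011).

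Hexim1, which encodes the inhibitor that blocks Cdk9 inside the particle, was close to the typical gene. It was at 34.8, 35.1, 35.3 and 34.2 CPM in dKO libraries 1 to 4, against 37.2, 36.4, 35.6, 36.8 and 36.8 CPM in WT libraries 1 to 5. All dKO libraries lay below all WT libraries, by little: the relative log2 fold change was -0.07 (95% interval -0.16 to 0.03, adjusted p = 0.276, edgeR). Per spike-in count it rose by a log2 of 0.37 (SE 0.12, adjusted p = 0.011, edgeR), at 2.43 to 2.96 counts per 1000 spike-in counts in dKO and 1.81 to 2.30 in WT, a call that did not pass without WT 2, 3 and 4 (0.35, adjusted p = 0.0646).

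Mepce, the capping enzyme of 7SK, was at 39.5 to 41.9 CPM in dKO and 39.6 to 48.2 CPM in WT, with WT 1 the highest. Its relative log2 fold change was -0.07 (95% interval -0.20 to 0.07, adjusted p = 0.46, edgeR), -0.16 without WT 2, 3 and 4 and -0.01 without WT 1, none of which passed. Per spike-in count it rose by 0.37 (SE 0.12, adjusted p = 0.00936), with 2.79 to 3.53 counts per 1000 spike-in counts in dKO and 2.06 to 2.66 in WT, and did not pass without WT 2, 3 and 4 (0.28, adjusted p = 0.13, edgeR).

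The P-TEFb kinase gene Cdk9 lay at the middle of all genes on both scales. It was at 41.5, 40.9, 38.6 and 41.8 CPM in dKO libraries 1 to 4, against 46.0, 38.3, 38.4, 38.7 and 44.0 CPM in WT libraries 1 to 5. The WT libraries fell into a high pair, WT 1 and WT 5, and a low set of WT 2, 3 and 4, and the dKO libraries lay between or within them. The relative log2 fold change was -0.01 (95% interval -0.16 to 0.13, adjusted p = 0.924, edgeR), and -0.15 without WT 2, 3 and 4. Per spike-in count Cdk9 rose by 0.42 (SE 0.13, adjusted p = 0.00443, edgeR), and by 0.29 without WT 2, 3 and 4, which did not pass (adjusted p = 0.12).

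The cyclin partners of Cdk9 gave different values. Ccnt1, which encodes cyclin T1, was at 125.9 to 136.3 CPM in dKO and 126.1 to 136.5 CPM in WT, with nearly the same range in both groups and a relative log2 fold change of -0.02 (95% interval -0.10 to 0.06, adjusted p = 0.767, edgeR). Ccnt2, which encodes cyclin T2, was at 210.9, 202.8, 201.9 and 184.5 CPM in dKO libraries 1 to 4, against 229.8, 219.8, 222.7, 223.6 and 212.4 CPM in WT libraries 1 to 5. All dKO libraries lay below all WT libraries, with dKO 1 and WT 5 close together. Ccnt2 fell relative to all genes by 0.15 on the log2 scale (SE 0.04, adjusted p = 0.0253, edgeR), or 0.903-fold. The fall did not pass when WT 1, WT 3, WT 4, dKO 2, dKO 3 or dKO 4 was left out (values of -0.15 to -0.11, adjusted p up to 0.0746, edgeR), nor without WT 2, 3 and 4 (-0.15, adjusted p = 0.241). Per spike-in count Ccnt1 rose by 0.42 (SE 0.10, adjusted p = 0.000875) and Ccnt2 by 0.29 (SE 0.10, adjusted p = 0.0164, edgeR), where Ccnt2 did not pass without dKO 2 (0.24, adjusted p = 0.0762), without dKO 3 (0.28, adjusted p = 0.0511) or without WT 2, 3 and 4 (0.29, adjusted p = 0.0594).

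**Figure D2:**
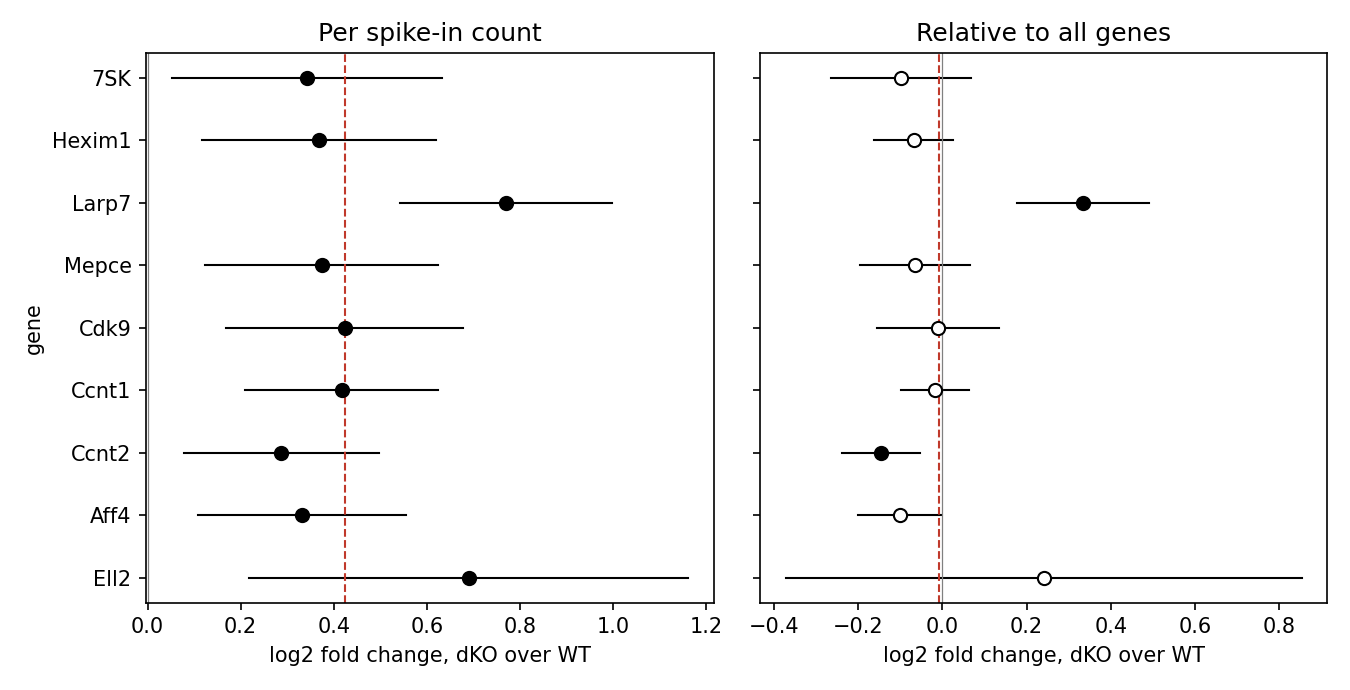
Log2 fold change (dKO over WT) of each gene with its 95% interval from edgeR, per spike-in count (left) and relative to all genes (right); filled points passed the adjusted p of 0.05 and the dashed line is the median of all genes tested. The points of 7SK, Hexim1, Mepce, Cdk9, Ccnt1, Ccnt2 and Aff4 lie at or below the dashed line (0.43 left, -0.01 right), and those of Larp7 (0.77 left, 0.33 right) and Ell2 (0.69 left, 0.24 right) lie above it.

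Aff4, the scaffold of the super elongation complex, was at 511.6, 459.6, 458.0 and 482.6 CPM in dKO libraries 1 to 4, against 484.1, 523.5, 522.2, 519.6 and 513.1 CPM in WT libraries 1 to 5. Of the dKO libraries dKO 1 reached the WT range, and dKO 2, 3 and 4 lay below every WT library, with WT 1 lower than the other WT libraries. The relative log2 fold change was -0.10 (SE 0.04, adjusted p = 0.123, edgeR), and without dKO 1 it was -0.13 and passed (adjusted p = 0.0424). Per spike-in count Aff4 rose by 0.33 (SE 0.11, adjusted p = 0.00985, edgeR).

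Ell2, an elongation factor that joins AFF4, was the least expressed of the 9 genes, with 79 to 173 reads in dKO libraries and 78 to 175 in WT libraries. It was at 3.77, 5.96, 4.94 and 4.82 CPM in dKO libraries 1 to 4, against 7.72, 3.53, 3.08, 2.50 and 4.48 CPM in WT libraries 1 to 5. WT 1 was the highest of all libraries and WT 2, 3 and 4 were the lowest. The relative value of 0.24 (95% interval -0.37 to 0.85, adjusted p = 0.575, edgeR) did not pass, and was -0.29 without WT 2, 3 and 4 and 0.52 without WT 1. Per spike-in count the log2 fold change was 0.69 (SE 0.23, adjusted p = 0.0109, edgeR), with overlapping groups, and the call did not pass without WT 2 (0.59, adjusted p = 0.0741), without WT 2, 3 and 4 (0.16, adjusted p = 0.586) or with DESeq2 (adjusted p = 0.0726).

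Levels of different genes were compared as CPM per kilobase of exon in the GENCODE M21 models, which are not the models used for counting. 7SK averaged 55968 CPM per kilobase in dKO and 59929 in WT. Among the protein-coding genes, the level of Aff4 was highest at 35.5 in dKO and 38.1 in WT, and Larp7 followed at 31.0 in dKO and 24.7 in WT. Ccnt2 was at 16.2 in dKO and 17.96 in WT, and Ccnt1 at 14.3 in dKO and 14.45 in WT. Mepce (11.5 in dKO, 12.01 in WT), Hexim1 (9.97 in dKO, 10.5 in WT) and Cdk9 (8.83 in dKO, 8.91 in WT) came next, and Ell2 was last at 0.496 in dKO and 0.434 in WT. The order was the same in both groups, and for 0 of 8 neighbouring pairs in either group did the libraries overlap.

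Ratios between partners within a library need no scaling and are given without a test, since the genes were chosen with results known. There were 218, 249, 272 and 273 reads of 7SK per Larp7 read in dKO libraries 1 to 4, against 289, 340, 370, 378 and 333 in WT libraries 1 to 5, with means of 253 ± 25.7 in dKO (SD, n = 4) and 342 ± 35.5 in WT (n = 5). All dKO libraries lay below all WT libraries. The ratio of Ccnt1 to Ccnt2 was 0.621 to 0.703 in dKO and 0.566 to 0.617 in WT, without overlap. Larp7 and Ccnt2 are the members called relative to all genes, so these ratios in part restate those calls. How many other gene pairs separate the groups was not counted. Hexim1 reads per Cdk9 read were 0.818 to 0.916 in dKO and 0.809 to 0.951 in WT, and 7SK reads per Cdk9 read were 399 to 489 in dKO and 432 to 521 in WT; both overlapped.

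**Figure D3:**
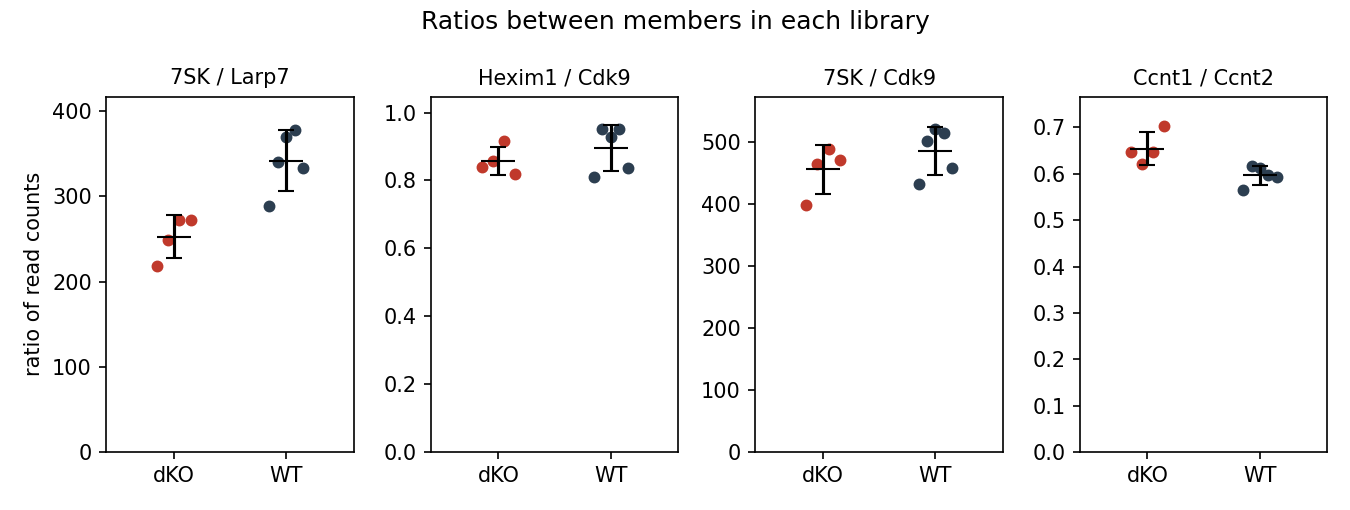
Ratio of read counts between 2 genes in each library (points), with the group mean and SD, dKO (n = 4) left of WT (n = 5). The ratio of 7SK to Larp7 (253 in dKO, 342 in WT) and that of Ccnt1 to Ccnt2 (0.655 in dKO, 0.597 in WT) separate the groups; the other 2 ratios overlap.

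Of 10 tested genes of super and little elongation complexes other than the 9, 1 rose (Aff1) and 2 fell (Aff2 and Aff3) relative to all genes (edgeR). Over all genes tested, 13.7% rose and 12.0% fell on this scale. Aff1, which encodes the alternative scaffold AFF1 of the complex, was at 26.2, 25.4, 26.3 and 33.4 CPM in dKO libraries 1 to 4, against 19.3, 16.7, 16.97, 17.7 and 19.5 CPM in WT libraries 1 to 5. All dKO libraries lay above all WT libraries, and Aff1 rose by a relative log2 of 0.62 (SE 0.09, adjusted p = 0.000648, edgeR) and by 1.06 per spike-in count (SE 0.13). Aff2 (32.8 ± 2.28 CPM in dKO, 41.8 ± 2.75 CPM in WT) and Aff3 (61.1 ± 3.88 CPM in dKO, 76.8 ± 8.86 CPM in WT), further members of the family, fell by 0.35 and 0.34 relative to all genes (adjusted p = 0.00295 and 0.0104, edgeR). Per kilobase of exon, Aff1 was at 2.94 CPM in dKO and 1.91 CPM in WT, well under Aff4 in both groups. Without WT 2, 3 and 4 the relative values were 0.50 for Aff1 (adjusted p = 0.0532), -0.27 for Aff2 (adjusted p = 0.122) and -0.17 for Aff3 (adjusted p = 0.286), which did not pass. Ell, the founding ELL gene, gave -0.05 (adjusted p = 0.663, edgeR), and Hexim2, the paralog of Hexim1, one of -0.09 (adjusted p = 0.454). Ell3 had 0 to 2 reads in dKO libraries and 1 to 3 in WT libraries and was not tested.

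**Figure D4:**
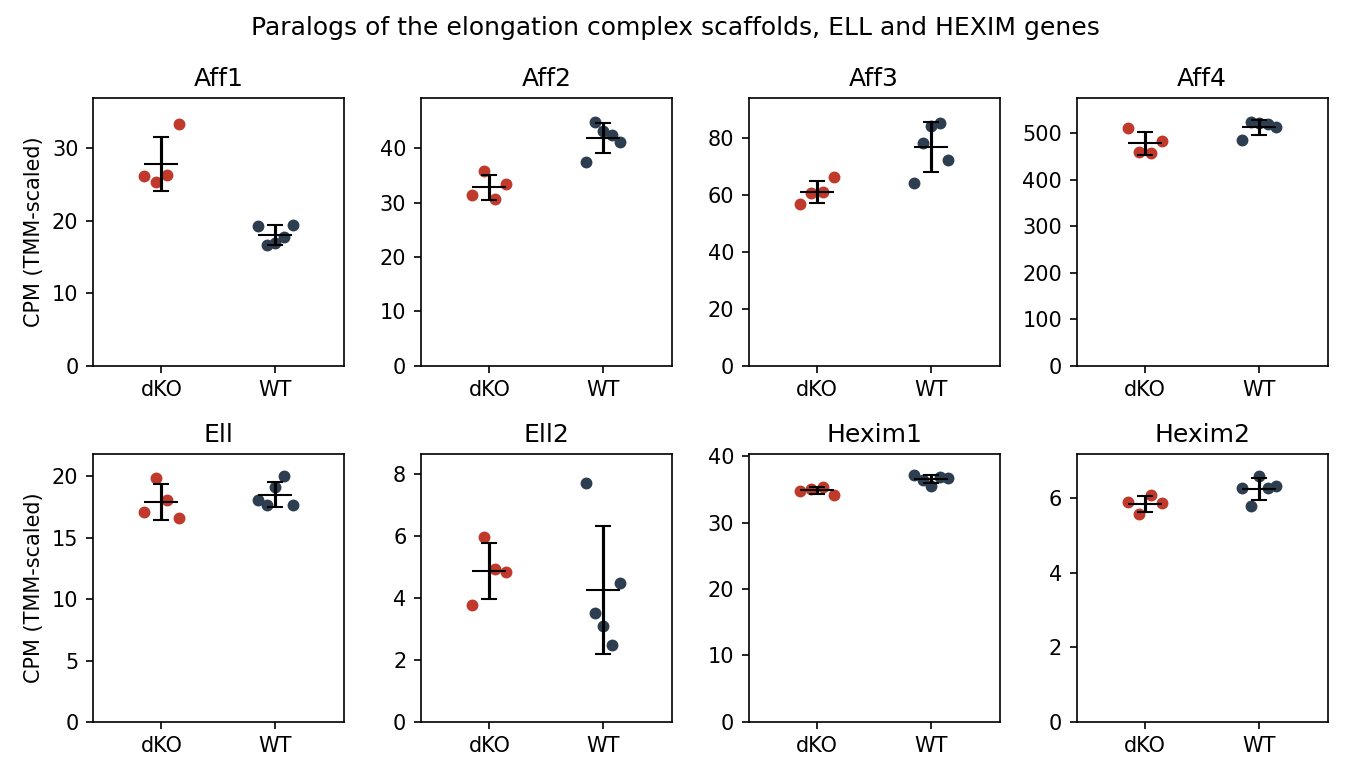
TMM-scaled CPM of AFF family, ELL family and HEXIM family genes in each library (points), with the group mean and SD, dKO (n = 4) left of WT (n = 5). Aff1 is higher in every dKO library (25.4 to 33.4 CPM) than in any WT library (16.7 to 19.5 CPM), Aff2 is lower in every dKO library, and the groups of Ell and Ell2 overlap.

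A wider set of 76 tested elongation genes was read in the same fits. Of these, 68 rose and 0 fell per spike-in count (edgeR), where 61.1% of all genes tested rose and 0.698% fell. Their median was 0.46, and 0 of them fell at an unadjusted p under 0.05 or with DESeq2 or limma-voom. Relative to all genes 13 rose and 9 fell, with a median of 0.03, where 13.7% of all genes tested rose and 12.0% fell. Of these 22 calls 1, Cdk7, passed without WT 2, 3 and 4 (0.33, adjusted p = 0.0401, edgeR), so each relative call in the next 2 paragraphs other than that of Cdk7 was not kept in that fit.

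A list of 15 genes linked to the control of P-TEFb, as activators or repressors, had 5 rises and 2 falls relative to all genes (median 0.09). Over all genes tested, 13.7% rose and 12.0% fell on this scale. The lowest adjusted p of the 15 were those of the nucleolar genes Ncl and Ddx21. Ncl (nucleolin) was at 473 CPM in dKO and 384 CPM in WT (0.30, adjusted p = 0.000608, edgeR). Ddx21, an RNA helicase that evicts P-TEFb from the 7SK particle, was at 235 CPM in dKO and 196 CPM in WT (0.26, adjusted p = 0.00137, edgeR). The 2 falls were those of Bcl11b (-0.55, adjusted p = 0.00644) and Brd3 (-0.14, adjusted p = 0.00683, edgeR). The median of the super and little elongation complex genes, with the AFF genes above, was -0.04. Of 6 tested relatives of 7SK and P-TEFb proteins, 1 rose and 0 fell (2 rose and 0 fell at an unadjusted p under 0.05; median -0.00). Larp4, a La-related protein of the cytoplasm, rose by 0.26 (adjusted p = 0.00247, edgeR), and Ssb, the La protein, had 0.13 (adjusted p = 0.0522). Of 9 tested proteins that bind 7SK outside the core particle 0 rose and 2 fell (median -0.06), Rbmx, an hnRNP gene (-0.15, adjusted p = 0.009), and Smarca4, the BAF remodeller ATPase (-0.19, adjusted p = 0.00902, edgeR).

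Genes of the factors that hold the paused polymerase did not pass the test relative to all genes. On this scale 13.7% of all genes tested rose and 12.0% fell. Of 7 tested NELF, DSIF and SPT6 genes, 0 rose and 0 fell relative to all genes (edgeR; 0 rose and 1 fell at an unadjusted p under 0.05), with a median of -0.00; the lowest adjusted p were those of Supt6h (-0.08, adjusted p = 0.0845) and Cobra1, which encodes NELF-B (0.11, adjusted p = 0.183). Of 12 PAF complex and other elongation factors 1 rose and 2 fell (median 0.00): Ssrp1, of the histone chaperone FACT (0.17, adjusted p = 0.0119), Tcea2, a TFIIS gene (-0.33, adjusted p = 0.00331), and the histone methyltransferase gene Setd2 (-0.11, adjusted p = 0.0261, edgeR). Of 6 initiation kinase genes 2 rose and 1 fell (median 0.12). Cdk7, the TFIIH kinase that also activates Cdk9, was at 85.0 CPM in dKO and 69.8 CPM in WT (0.28, SE 0.05, adjusted p = 0.00188), Mnat1, its assembly factor, was at 30.9 CPM in dKO and 24.2 CPM in WT (0.35, adjusted p = 0.00194), and the Mediator kinase gene Cdk19 fell by 0.38 (adjusted p = 0.00285, edgeR). Of 11 genes of polymerase tail phosphatases and Integrator 3 rose and 0 fell (0 fell also at an unadjusted p under 0.05; median 0.05), led by the phosphatase genes Ctdsp1 (0.35, adjusted p = 0.00464) and Ctdsp2 (0.15, adjusted p = 0.0163, edgeR).

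Genes with the most similar relative profile were found as those with the smallest mean absolute difference in centred log2 CPM over the 9 libraries, and this is a likeness of values only. For 7SK these were Mier2 (0.02 log2 units), Cabin1 (0.03) and Rabggta (0.03), for Hexim1 Ppt1, Nsd1 and Tnrc6b (0.02 each), and for Cdk9 Arglu1, Lsm10 and Ddx28 (0.03 each). Being picked for likeness to genes that did not pass the test, all 9 also had relative values that did not pass, between -0.10 and 0.04 (edgeR).

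Promoters were searched for the core motif of TEAD factors, the DNA-binding partners of YAP and TAZ, whose activity the Lats kinases restrain. The letters GGAATG were sought on both strands (CATTCC on the other) in RefSeq windows of 250 bases before to 50 after the start, build GRCm38.p6. Windows were at hand for 7 of the 9 genes, all but 7SK and Mepce, and 1 of the 7 (14.3%), that of Ccnt1, held a match, against 14.7% of 32851 windows of the same length. Of the 2 windows of Aff1, 1 held a match. These stretches, each cut from the gene's strand with the match in capitals, are shown because they are the only matches among the member genes and the scaffold gene that rose; the Ccnt1 stretch is chr15:98567788-98567847 (minus strand) and the Aff1 stretch chr5:103754323-103754370 (plus strand).
Ccnt1: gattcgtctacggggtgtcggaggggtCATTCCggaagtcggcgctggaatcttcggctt
Aff1: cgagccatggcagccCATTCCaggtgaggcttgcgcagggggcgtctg
Relative to all genes Ccnt1, with a match, did not pass the test (-0.02), and Larp7, which rose, and Ccnt2, which fell, held none. A match in these letters is a description and not a site of binding.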

How the data were processed

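The deposited files hold raw read counts by gene symbol, 1 file per library. Per the submitters' processing notes the authors used STAR and HTSeq on mm9; no source used here gives versions, annotation or the strand setting of counting. Libraries were stranded total RNA, per the labels' protocols. The counter's own rows (such as reads in no gene or aligned to several places) and 92 ERCC spike-ins stayed out of gene totals. Locations and lengths are from GRCm38 annotation and served for description only. On that annotation, exons of Cdk9, Ccnt1 and Ell2 share 3.36%, 7.59% and 2.28% of their bases with other genes.

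Genes were kept by filterByExpr (17182, holding 99.9% of gene counts) and tested with edgeR 4.0.16 in R 4.3.3 (quasi-likelihood, Benjamini-Hochberg over all genes tested, threshold 0.05), with the library size set to the spike-in total or by TMM. SE is the fold change over the root of F; intervals are 95%. Embryos are separate per the labels, litters are not given. Alternatives were other scalings, filters, DESeq2 1.42.0, limma-voom (3.58.1), a tested change of at least 1.2-fold, libraries left out and the replicate number as a block. In simulated counts the fold changes from both fits were, at the median error, close to those set. For the spike-in scale the simulation kept gene counts per spike-in count even within a group. It therefore did not cover uneven counting or spiking. The members, gene lists and alternatives were chosen with earlier results of these data known. All 9 members, AFF, ELL and HEXIM paralogs and the 2 genes with the lowest relative adjusted p of each list were named. Bcl11b, Brd3, Cdk19, Setd2 and the polymerase III RNAs were named after their values were seen. Of 81 listed elongation genes 77 were in the files, some under older symbols.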

Additional observations from a re-analysis of the deposited data

Results flagged for a closer look

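Of 38 sets of values (each of the 9 genes on both scales and the gene counts per spike-in count, in each group), 2 held a library far from the others by Dixon's test, and chance flags about 1 in 20. Mepce in WT 2 was at 2.06 counts per 1000 spike-in counts, with the next WT library at 2.52; this library also had the lowest gene counts per spike-in count of all, 49.9. Aff4 in WT 1 was at 484 CPM, with the next WT library at 513; WT 1 was also the highest of all libraries for Ell2, Mepce and Cdk9 in CPM and had the fewest gene counts, 12906561. The part of depth in these values was not tested.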

How the results depend on the processing

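The 9 rises per spike-in count became 7 to 9 when 1 library was left out, where 50.7% to 65.9% of all genes rose. They became 8 with no filter on low counts (7SK lost), where 39% of all genes rose. Without WT 2, 3 and 4 they became 3, where 48.2% of all genes rose. When a change of at least 1.2-fold was tested they became 2 (Larp7 and Ell2). In that test 37.1% of all genes rose and the wider set gave 44 rises. Relative to all genes, the rise of Larp7 and the fall of Ccnt2 both became 0 without WT 2, 3 and 4 and with the 1.2-fold test. In each of these 2 settings the wider set gave 1 rise and 0 falls. Over all genes, 2.33% rose and 0.972% fell without WT 2, 3 and 4, and 3.18% rose and 1.61% fell with the 1.2-fold test. Leaving out 1 library gave 0 to 2 relative falls among the members, 0 in 6 of 9 cases, where 8.1% to 12.7% of all genes fell. Gene counts per spike-in count gave a log2 difference of 0.45 without WT 2, 3 and 4, where an exact permutation p cannot go under 0.0667. Over 18 alternatives Larp7 per spike-in count stayed past the test (0.63 to 0.81), and over 19 its relative value ranged from 0.18 to 0.40. No value that passed the test changed sign under these alternatives; among relative values that did not pass, those of Cdk9 (-0.15 to 0.04), Ccnt1 (-0.04 to 0.02) and Ell2 (-0.29 to 0.52) did. Deviations of same-numbered dKO and WT libraries had correlations of -0.22 to 0.12, against -0.24 to 0.25 for libraries of different numbers. With litters not given, these values cannot decide whether the numbers pair the libraries. With the replicate block the members gave 9 rises per spike-in count, where 61% of all genes rose. Relative to all genes that fit gave 1 rise and 1 fall among the members. All genes gave 1864 relative rises and 1598 falls with the block, against 2355 and 2067 without it. The fit without WT 2, 3 and 4 keeps 2 WT libraries, so a lost call there can reflect fewer samples. Ell2 rests on 79 to 173 reads per library in dKO and 78 to 175 in WT.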
